A study of Homo sapiens with 4 samples.

Results

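The expression of imprinted genes was analysed in HML58-3 cells treated with 3 DNA-demethylating drugs. The genes are 36 named members outside the *MEG3* locus, and a probe of the array was matched to 35 of them, of 25006 genes with a probe in all. *HYMAI* had no matched probe. Each probe was assigned through the transcript accession in the array design, and where a gene had several probes the one with the highest mean signal was used, which left 35 of 53 member probes. HML58-3 is a derivative of the human colon cancer line HCT116 made to report DNA demethylation through luciferase. The 4 groups, all of this line, were mock, DAC (decitabine) and the DAC prodrugs OR-2003 and OR-2100. The drugs, dissolved in DMSO, were given at 1 μM in fresh medium on day 1, and RNA was taken on day 5. The labels do not say what the mock medium held. Each group is 1 array, so a difference has no replicate check, p-values are not given, and the number of arrays limits the precision. Where 3 values for the drugs follow each other, they are in the order DAC, OR-2003, OR-2100.

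An imprinted gene is expressed mainly from the copy inherited from one parent. The choice is set by DNA methylation laid down in the egg or the sperm at control regions, and it is kept through cell division by the maintenance methyltransferase DNMT1. DAC is built into DNA in place of deoxycytidine and traps DNMT1, so that methylation is lost as cells divide. Imprinted genes often lie in clusters, act on fetal growth, and gain or lose methylation in tumours. The arrays read total RNA and do not tell the parental copies apart.

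Promoter sequences were taken from RefSeq on build GRCh38.p14, which had a window of 250 bases before to 50 bases after the start for 26 of the 36 members. Below are the 150 bases before the start for the called genes *H19*, *NDN*, *INPP5F*, *SLC22A18* and *MKRN3*, and for *MAGEL2*, a neighbour of *NDN* and *MKRN3*. They are shown because methylation of CpG sites is what DAC lowers, and these genes lay far apart in CpG sites and in response. Whether these sites were methylated was not read here. Capitals mark CpG sites, and each sequence reads 5′ to 3′ on the strand of its gene.
*H19* chr11:2001267-2001416 (- strand): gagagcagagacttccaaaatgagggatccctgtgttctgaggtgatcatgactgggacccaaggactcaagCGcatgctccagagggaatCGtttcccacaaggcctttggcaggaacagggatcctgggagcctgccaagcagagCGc
*NDN* chr15:23687306-23687455 (- strand): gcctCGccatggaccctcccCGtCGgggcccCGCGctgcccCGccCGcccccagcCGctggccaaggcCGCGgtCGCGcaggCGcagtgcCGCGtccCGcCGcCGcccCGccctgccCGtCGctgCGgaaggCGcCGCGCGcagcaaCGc
*INPP5F* chr10:119726346-119726495 (+ strand): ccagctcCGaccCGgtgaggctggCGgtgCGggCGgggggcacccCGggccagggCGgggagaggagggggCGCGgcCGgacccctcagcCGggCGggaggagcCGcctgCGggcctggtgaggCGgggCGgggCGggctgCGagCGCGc
*MAGEL2* chr15:23647868-23648017 (- strand): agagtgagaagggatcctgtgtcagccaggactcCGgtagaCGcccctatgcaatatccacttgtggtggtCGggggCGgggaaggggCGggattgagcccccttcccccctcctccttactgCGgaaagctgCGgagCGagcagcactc
*MKRN3* chr15:23565524-23565673 (+ strand): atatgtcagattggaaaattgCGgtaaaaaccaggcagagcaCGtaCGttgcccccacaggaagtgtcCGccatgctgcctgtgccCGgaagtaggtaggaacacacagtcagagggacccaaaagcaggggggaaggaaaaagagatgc
*SLC22A18* chr11:2902128-2902277 (+ strand): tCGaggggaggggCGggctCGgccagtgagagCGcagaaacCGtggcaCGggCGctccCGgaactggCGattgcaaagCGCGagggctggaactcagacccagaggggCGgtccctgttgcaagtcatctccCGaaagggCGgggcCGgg
The *NDN* stretch holds 27 CpG sites and the *H19* stretch 3. The *INPP5F* stretch holds 20, *SLC22A18* 15, *MAGEL2* 8 and *MKRN3* 5.

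Levels are in log2 units of intensity above or below the 75th percentile of each array. An induced gene was higher than mock by 2-fold or more and had a level of -1 or above, taken as positive expression, with the drug. A reduced gene was lower by 2-fold or more and lay at -1 or above on the mock array. Of the 35 members, 5 were induced with DAC, 5 with OR-2003 and 6 with OR-2100, where 5.77%, 5.89% and 5.81% of all genes were induced. The 5 induced by all 3 drugs, *H19*, *NDN*, *PEG10*, *NNAT* and *INPP5F*, made up 14.3% of the members, beside 5.27% of all genes. Reduced members numbered 3 with DAC, 4 with OR-2003 and 3 with OR-2100, beside 5.96%, 6.05% and 6.82% of all genes, and 12.3%, 12.5% and 14.1% of the genes at -1 or above on mock. The 3 reduced by all 3 drugs, *KCNQ1*, *SLC22A18* and *PPP1R9A*, made up 8.57% of the members, beside 5.21% of all genes. Of the 35 members, 22 lay at -1 or above on mock and could be counted as reduced, beside 12106 of 25006 genes. Of all such genes, 10.8% were reduced by all 3 drugs. The members thus lay at higher levels than all genes, and the shares of induced genes were not matched for level. The remaining 25 members met neither rule with any drug. When the median of all probes was set to 0, which shifts levels against the threshold of -1, 10, 8 and 10 members were induced and 5, 6 and 5 reduced. The RNA came from whole cultures, so fewer cells that express a gene and less of its RNA per cell cannot be told apart.

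**Figure D1:**
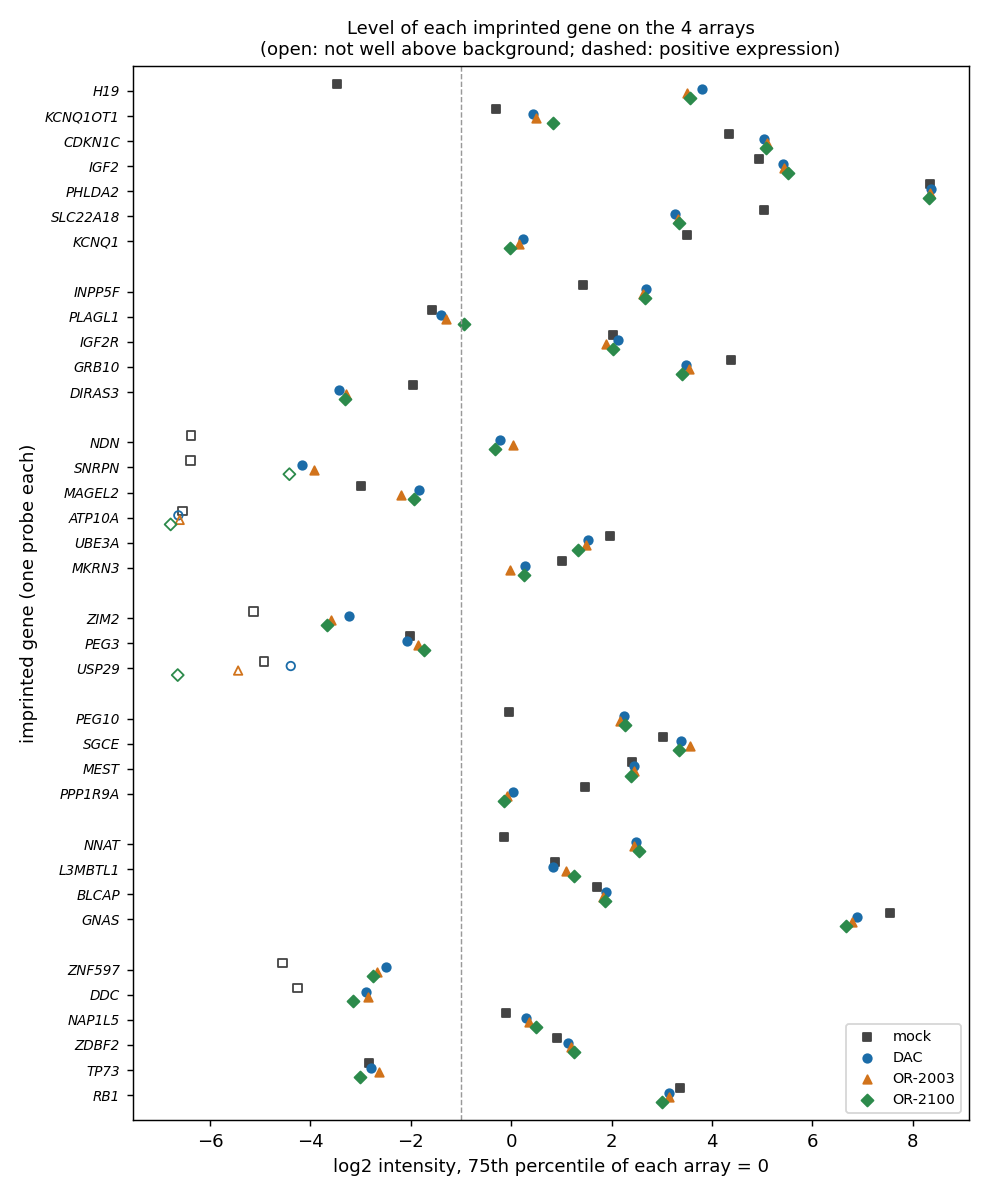
Level of each member gene (rows, grouped by locus or role) on the arrays of mock and the 3 drugs, in log2 units of intensity with the 75th percentile of each array at 0. Each point is 1 array, open points are not well above background and the dashed line is the level of positive expression. The points of the 3 drugs lie close together for most genes, while mock lies far to the left for *H19* and *NDN* and to the right for *KCNQ1*.

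Of the 35 probes, 28 were well above background on all 4 arrays and 2, for *ATP10A* and *USP29*, on none. Well above background were 28 members on the mock array, 33 with DAC, 33 with OR-2003 and 32 with OR-2100. The noise between spots of one probe, from 284 probes with 10 spots, gave an SD of 0.0895 for a log2 difference, and of 0.224 for the 10 of these with a mean level under -1. This noise holds no difference between cultures. All member probes but that of *RB1* had 1 spot.

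As a whole, the members had median log2 differences of 0.19, 0.22 and 0.32 with the drugs, beside -0.12, -0.093 and -0.23 for all genes, and the member median with OR-2003 was -0.00097 when the median of all probes was set to 0. Over the 28 members well above background on all arrays the medians were 0.075, 0.18 and 0.22, beside -0.18, -0.17 and -0.21 for all such genes. Of the 35 members, 18 were higher than mock with each of the 3 drugs and 10 were lower with each. Of all 25006 genes, 7592 were higher with each and 12987 lower. The comparisons share the mock array, so these counts come from 1 mock culture.

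Among members well above background on all arrays, the largest difference from mock was that of *H19*, in the growth cluster of *H19*, *IGF2* and *KCNQ1*. *H19* is a noncoding RNA expressed from the maternal copy, and it shares enhancers with *IGF2*, a fetal growth factor expressed from the paternal copy. The *H19* level was -3.46 on the mock array, 3.81 with DAC, 3.51 with OR-2003 and 3.56 with OR-2100. It was thus low on mock and high on every drug-treated array, by 155, 126 and 131-fold. The second *H19* probe rose from -3.35 to 2.79, 2.67 and 2.68, a log2 difference of 6.15, 6.03 and 6.04. The size depended on the background correction, and the mean log2 difference over the drugs was 7.09 with the scanner's correction and 4.81 with normexp.

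*IGF2* lay at 4.94 on the mock array and at 5.41, 5.43 and 5.51 with the drugs. The log2 differences of 0.47, 0.50 and 0.57 were above the noise between spots and under 2-fold. A dimmer *IGF2* probe had differences of 0.80, 0.53 and 0.70. Both genes were thus higher than mock with each drug.

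On the *KCNQ1* side of the cluster, genes went both ways. *KCNQ1*, a voltage-gated potassium channel subunit, fell from 3.50 on the mock array to 0.24 with DAC, 0.15 with OR-2003 and -0.03 with OR-2100. It was 9.64, 10.2 and 11.6-fold lower. Its call held in every setting of scaling and background correction, with mean differences over the drugs between -3.53 and -2.97. *KCNQ1* had 1 probe. *SLC22A18*, a membrane transporter, fell from 5.04 to 3.27, 3.32 and 3.35, and was 3.41, 3.29 and 3.22-fold lower. Both are maternally expressed genes.

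*KCNQ1OT1* is the noncoding RNA that runs antisense to *KCNQ1* and is expressed from the paternal copy. It lay at -0.29 on the mock array and at 0.44, 0.50 and 0.83 with the drugs. It met the rule with OR-2100 alone, at 2.18-fold, with log2 differences of 0.73 and 0.79 for the other drugs. Its second probe differed by 0.34, -0.17 and 0.42, and the call was lost with normexp, with the 75th percentile of bright probes and with the mean of both probes. *CDKN1C*, an inhibitor of cyclin-dependent kinases, went from 4.34 to 5.04, 5.09 and 5.08, under 2-fold. *PHLDA2*, a growth-restraining gene of the placenta, lay between 8.32 and 8.36 on all 4 arrays.

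Of the 6 members on 15q, a region whose genes are lost or silenced in Prader-Willi and Angelman syndromes, only *NDN* was induced by all 3 drugs. *NDN* encodes necdin, a MAGE-family protein of neurons that is expressed from the paternal copy. Its level was -6.38 on the mock array, where the probe was not well above background, and -0.22, 0.04 and -0.31 with the drugs. The background limit of the mock array, -4.29, is the lowest level of any probe well above background there. Set against this limit, *NDN* was 16.7, 20.1 and 15.7-fold higher. Folds given below as at least a value are set against it with the scanner's background correction. They are not strict bounds, because some probes not well above background on mock lay above the limit, such as that of *MEG8* at -4.11. With normexp the mean log2 difference was 1.67 and the call was kept, and with the 75th percentile of bright probes the levels with drugs fell under -1 and the call was lost.

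The neighbours of *NDN* were not induced. *MAGEL2*, another MAGE-family gene, lay at -2.99 on the mock array and at -1.85, -2.19 and -1.93 with the drugs. It was 2.21, 1.74 and 2.08-fold higher, in the direction of *NDN*, and under the level of positive expression throughout. *MKRN3*, a ring finger protein that restrains the onset of puberty, lay at 1.02 on the mock array and at 0.27, -0.03 and 0.25. It was 2.08-fold lower with OR-2003 and met no rule with DAC or OR-2100, at -0.75 and -0.77 on the log2 scale. The call with OR-2003 was lost with normexp, with quantile normalization and with the 75th percentile of bright probes. These 3 genes are all known as paternally expressed and free of introns.

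*SNRPN*, a spliceosome protein gene whose promoter lies in the imprinting centre of the cluster, was at -6.39 on the mock array and at -4.17, -3.93 and -4.42 with the drugs. It was well above background with DAC and OR-2003 only, by at least 1.08 and 1.28-fold. *SNURF* shares the *SNRPN* transcript and is not a member. Its probe lay at -5.07, -0.93, -0.55 and -1.11 on mock and the 3 drugs, so it reached the level of positive expression with DAC and OR-2003. *UBE3A*, the ubiquitin ligase of Angelman syndrome, went from 1.97 to 1.53, 1.50 and 1.32, with log2 differences of -0.43, -0.47 and -0.64, and its second probe differed by -0.34, -0.32 and -0.29.

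Of the 4 members in the 7q group, 1 was induced and 1 reduced by all 3 drugs. *PEG10*, a gene derived from a retrotransposon that is needed for the placenta, lay at -0.05 on the mock array and at 2.24, 2.18 and 2.26 with the drugs. It was 4.91, 4.68 and 4.97-fold higher. Its neighbour *SGCE*, a sarcoglycan that shares the paternal expression of *PEG10*, went from 3.02 to 3.38, 3.56 and 3.34, under 2-fold. *PPP1R9A*, which encodes the actin-binding protein neurabin, fell from 1.47 to 0.03, -0.07 and -0.14, and was 2.73, 2.93 and 3.05-fold lower. The second probe of *PPP1R9A* fell by 0.89, 0.81 and 1.05 on the log2 scale and met the rule with OR-2100 alone. *MEST*, a hydrolase-fold protein gene farther along the arm, lay at 2.40, 2.44, 2.44 and 2.38.

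*NNAT*, a small membrane protein of developing brain expressed from the paternal copy, lay at -0.14 on the mock array and at 2.49, 2.45 and 2.54 with the drugs. It was 6.19, 6.03 and 6.44-fold higher. *NNAT* lies inside an intron of *BLCAP*, and *BLCAP* lay at 1.71 on the mock array and at 1.90, 1.82 and 1.88. The log2 difference was thus between 2.59 and 2.69 for the inner gene and between 0.11 and 0.19 for the outer one.

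*INPP5F*, a phosphoinositide phosphatase gene with an imprinted transcript, rose from 1.43 to 2.68, 2.63 and 2.67, or 2.39, 2.30 and 2.36-fold. Its other 2 probes were also induced by all 3 drugs, with log2 differences of 1.45, 1.45 and 1.31 for one and 1.34, 1.51 and 1.33 for the other. *INPP5F* missed the rule with OR-2003 when the median of all probes was set to 0.

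For *GNAS* and *GRB10*, probes of the same gene went in opposite directions. *GNAS* encodes the stimulatory G protein alpha subunit and has several promoters with different imprints. Its brightest probe, A_24_P273666, lay at 7.55 on the mock array and at 6.89, 6.80 and 6.67 with the drugs, lower by less than 2-fold. The probe A_24_P168574, matched to another transcript, rose from 0.21 to 1.45, 1.36 and 1.51 and was induced by all 3 drugs. A further *GNAS* probe fell by 0.83, 0.94 and 0.84 on the log2 scale, and 2 were well above background on no array.

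*GRB10*, an adaptor that restrains insulin and growth factor receptors, has isoforms expressed from either copy according to tissue. The probe A_24_P235266 went from 4.39 to 3.48, 3.55 and 3.41, lower by less than 2-fold, and met the rule for reduced genes only when the median of all probes was set to 0. The probe A_23_P122863, matched to the same transcript entry, rose from 2.48 to 3.65, 3.74 and 3.65 and was induced by all 3 drugs. The call of *GNAS* and *GRB10* thus depends on the probe, and the main counts hold both as not called.

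*SNRPN*, *ZIM2*, *ZNF597* and *DDC* were not well above background on mock and stayed under the level of positive expression with the drugs, so that they could not be counted as induced. For *SNRPN*, *ZIM2* and *ZNF597* only folds against the background limit of the mock array are given. *ZNF597*, a maternally expressed zinc finger gene, went from -4.56 to -2.49, -2.68 and -2.76, at least 3.47, 3.04 and 2.89-fold. *ZIM2*, a zinc finger gene beside *PEG3*, was at least 2.09, 1.62 and 1.54-fold higher. With the scanner's background correction, the fold against this limit reached 2 with all 3 drugs for *ZNF597*. *DDC*, which encodes aromatic L-amino acid decarboxylase, was 2.57, 2.66 and 2.17-fold higher. Its mock level of -4.26 lay just above the background limit of -4.29, so these folds are set against that level. The mock signal itself was not well above background, so the folds are uncertain. With normexp the mean log2 differences of the 4 genes were 0.16, 0.09, 0.23 and 0.11 in the order first named.

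*DIRAS3*, a RAS-family growth suppressor expressed from the paternal copy, went the other way. It lay at -1.95 on the mock array and at -3.44, -3.28 and -3.31, lower with every drug, and could not be counted as reduced because of its low level on mock, a call it gained when the median of all probes was set to 0. *PEG3*, a paternally expressed zinc finger gene, lay at -2.01, -2.08, -1.86 and -1.74 on mock and the 3 drugs. *PLAGL1*, a zinc finger growth regulator, lay at -1.58, -1.40, -1.29 and -0.94.

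The growth factor receptor *IGF2R*, which clears IGF2, lay at 2.02, 2.13, 1.89 and 2.02. The tumour suppressor *RB1* differed from mock by -0.22, -0.21 and -0.37 on the log2 scale, and the p53 family gene *TP73* by 0.03, 0.20 and -0.19. *NAP1L5*, a nucleosome assembly protein gene, differed by 0.41, 0.47 and 0.59, *ZDBF2*, a zinc finger gene, by 0.22, 0.27 and 0.32, and *L3MBTL1*, a chromatin reader of the Polycomb group, by -0.05, 0.22 and 0.38. The second *L3MBTL1* probe differed by -0.97, -0.92 and -0.92, just under the 2-fold threshold. Over the 19 uncalled members well above background on all arrays, single differences ran from -1.49 to 1.14.

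The members were also listed by the copy reported as expressed in at least some tissues, from general knowledge and as a description only. Which copy is expressed in this line was not read. Of 19 paternally expressed members with a probe, 4 were induced by all 3 drugs and 0 reduced, and the medians were 0.47, 0.50 and 0.59 with the drugs. Of 12 maternally expressed members, 1, *H19*, was induced and 3 reduced by all 3 drugs, and the medians were -0.034, -0.092 and -0.22. The 4 members listed as varying with tissue or isoform, *GRB10*, *BLCAP*, *GNAS* and *DDC*, met no rule. Each gene was put in 1 class only, and *INPP5F* was listed as paternal for its imprinted transcript. The counts depend on these classes. Over all genes, 5.27% were induced and 5.21% reduced by all 3 drugs, with 10.8% reduced among those at -1 or above on mock, and the medians were -0.12, -0.093 and -0.23. The difference between the lists was not tested.

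The drugs were compared with each other at the same dose and time, without the mock array, over 3 pairs. No member differed 2-fold between DAC and OR-2003, between DAC and OR-2100 or between OR-2003 and OR-2100 with a level of -1 or more on one of both arrays. Of all genes, 2, 2 and 1 did, which is 0.008%, 0.008% and 0.004%. Over the 28 members well above background on all arrays, the median size of the log2 difference was 0.074 between OR-2003 and DAC, 0.10 between OR-2100 and DAC and 0.12 between OR-2100 and OR-2003, beside 0.077, 0.11 and 0.11 for all such genes. The largest were 0.34 for *MAGEL2*, 0.46 for *PLAGL1* and 0.39 for *TP73*, all in genes with a mock level under -1. With 1 array per drug, an interval for a difference between drugs cannot be given, and 1 culture does not show that the drugs act alike.

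Members with the same call differed in the CpG content of the promoter window. Over the 26 members with a window, CpG sites numbered 0 to 49 with a median of 20, beside a median of 20 over 18713 genes with a probe. The induced *H19* had 6, and the induced *NDN* and *INPP5F* had 35 and 34. The reduced *SLC22A18* had 28, and *PPP1R9A* and *MKRN3* had 15 each. The letters TGCCGC, the core of the motif bound by the imprint factor ZFP57, were searched on both strands and found in 10 of the 26 member windows, or 38.5%, beside 19.7% for genes with a probe and 16.7% of all 35116 windows of the table. Among the called members with a window, *NDN* held it. Only 1 start per gene was read, which need not be the start of the transcript that the probe reads. This holds for *H19* as well, so its 6 sites may not describe the promoter of the RNA measured. Control regions of imprinted genes often lie elsewhere.

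A list of 73 other imprinted genes, of which 70 had a probe, was read in the same way. By all 3 drugs, 6 were induced, or 8.57%, and 2 reduced, or 2.86%, and these counts were 14 and 6 when the median of all probes was set to 0. *LIN28B*, which blocks maturation of let-7 microRNAs, was not well above background on mock and rose at least 432, 414 and 381-fold. *TFPI2*, a protease inhibitor, was also not well above background on mock and was 85.2, 91.2 and 84.8-fold higher. *ASCL2*, a transcription factor of intestinal stem cells, was at least 15.5, 16.4 and 17.4-fold higher. *FAM50B*, an imprinted retrocopy, was 12.8, 14.0 and 13.4-fold higher. The zinc finger gene *ZFAT* and the carboxypeptidase gene *CPA4* were induced by between 2.97 and 3.71-fold. *TRAPPC9*, a vesicle trafficking gene, was 2.83, 2.91 and 3.32-fold lower, and the noncoding *VTRNA2-1* was 2.67, 2.50 and 2.69-fold lower. In the *MEG3* locus, 4 of 5 genes were induced by all 3 drugs, and the log2 differences of *MEG3* were 10.39, 10.57 and 10.84.

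Of 24 genes for factors that set or keep imprints, 22 had a probe. The 4 induced by all 3 drugs, or 18.2%, were genes of the egg or the germ line with mock probes not well above background, and 2 were induced with the 75th percentile of bright probes. *OOEP* and *KHDC3L*, of a protein complex of the egg, were at least 723, 746 and 679-fold and at least 150, 146 and 151-fold higher. *CTCFL*, a germ line relative of the insulator protein CTCF, was at least 27.5, 23.7 and 29.6-fold higher, and *NLRP7*, needed in the egg for imprints, at least 19.7, 21.6 and 19.7-fold. *TLE6*, of the same complex as *OOEP*, was 3.36, 3.63 and 3.60-fold lower, 4.55% of the list. Other genes of the egg or the germ line met no rule. *PADI6* differed by 0.77, 0.55 and -0.02 and *DPPA3* by 0.59, 1.58 and 0.14 on the log2 scale, and *DNMT3L* stayed at -3.18, -3.33 and -3.54 with the drugs. Factors of somatic cells were not called either, and *DNMT1* differed by -0.30, -0.18 and -0.38, *ZNF445* by -0.26, -0.21 and -0.12 and *CTCF* by -0.44, -0.37 and -0.53 on the log2 scale.

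The nearest 2 protein-coding genes on each side of each member that are on no list of imprinted genes were taken from the gene table, and 69 of 76 had a probe. Induced by all 3 drugs were 2, or 2.9%, and reduced were 4, or 5.8%. These counts were 10 and 7 when the median of all probes was set to 0, and 1 and 1 with the 75th percentile of bright probes. *PNLDC1*, near *IGF2R*, missed the rule with DAC alone, at a level of -1.05, and was at least 9.41, 9.77 and 9.95-fold higher. Of the 69 flanking genes, 9 were not well above background on mock and well above it with all 3 drugs. This held for 4 of 35 members and 1570 of 25006 genes. The genes induced by all 3 drugs were *AURKC* and *MKLN1*. *AURKC*, a germ cell kinase near *USP29*, was not well above background on mock and was 24.7, 27.6 and 27.2-fold higher. *MKLN1*, which encodes muskelin, lies near *MEST* and was 2.01, 2.18 and 2.14-fold higher. The reduced genes were *FAM13A*, near *NAP1L5*, at 3.17, 3.53 and 3.15-fold lower, *CARS1*, a transfer RNA synthetase gene beside the *KCNQ1* cluster, at 2.95, 3.17 and 3.13-fold, the centrosome gene *CEP41* at 2.46, 2.19 and 2.46-fold and the ciliary transport gene *IFT52* at 2.38, 2.21 and 2.52-fold.

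Marker genes were read on the same arrays. The 8 colon epithelial markers were well above background on all arrays except *VIL1* on mock, and their summed linear level was 1560, 1742, 1676 and 1648 on mock and the 3 drugs, while *EPCAM*, *CDH1* and *CLDN4* were reduced by all 3 drugs. Of 6 fibroblast markers, *COL3A1* and *LUM* were well above background on no array, and the summed level was 2.22, 4.08, 4.03 and 4.25. *COL1A1* was well above background on all 4 arrays, above -1 throughout, at 0.99 on mock and 1.82, 1.76 and 1.89 with the drugs. *PDGFRB* was also well above background on all 4, at -2.63 on mock and -3.26, -2.91 and -3.71 with the drugs. *DCN* and *COL1A2* were well above background with all 3 drugs and not on mock, by at least 6.63, 7.26 and 6.60-fold and at least 1.56, 2.01 and 1.79-fold, and both stayed under -1. Of the leukocyte markers, *PTPRC* lay at -1.48 on mock and at -1.79, -1.75 and -1.64 with the drugs, and *CD3E* was well above background on 1 array. *HBB*, a globin gene of red cells that was listed with them, was well above background on all 4 arrays. It was 2.29, 2.84 and 3.16-fold higher with the drugs and stayed under -1. *CD14* went from -2.27 to -0.58, -0.57 and -0.56 and was induced by all 3 drugs. The part of these differences in the values of the imprinted genes was not tested. The 12 housekeeping genes met no rule, with median log2 differences of -0.16, -0.14 and -0.27.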

How the data were processed

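The expression arrays of HML58-3 cells, 1 for each of 4 groups, were analysed. Spot intensity as the authors deposited it came from Agilent Feature Extraction 12.1.0.3, after background correction and not normalized between arrays. From there, control spots and 52 to 98 outlier spots per array were left out, log2 intensity was averaged per probe, and each array was scaled to its 75th percentile over gene probes, as in the methods of the paper. Of 58201 probes, 34892 were matched to a gene in the RefSeq table. Probes well above background numbered 31601 to 33282 per array, and 0 were saturated. Members, lists and thresholds were chosen with earlier results of these data known. Members were described singly where they met a rule with at least 1 drug, as were 7 well-known ones whatever their values, and the rest are given by their values or range. Counting was tested on simulated data. Alternatives were normexp with an offset of 50 on the spot and background intensity, quantile normalization, scaling by the median or by bright probes, a floor, outlier spots kept, probe means, dim probes left out, 3 other thresholds and the series value table. Python 3.11.15, numpy 2.4.6, pandas 2.3.3, R 4.3.3 and limma 3.58.1 were used. Methylation arrays were not analysed here. Another leukocyte marker is not reported here.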

Additional observations from a re-analysis of the deposited data

How the results depend on the processing

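Each condition is 1 array, so leaving out a replicate was not possible. No paired analysis was possible because there is 1 array in each group. The series value table held the same intensities as the arrays, so it could change nothing. Keeping outlier spots changed no count by over 1.5 times and moved no member median past the noise between spots. A floor at the background limit of -4.29 lies far under the threshold of -1, so it could hardly change a count. With this floor no member median moved past that noise. *H19*, *KCNQ1*, *SLC22A18*, *PEG10*, *PPP1R9A* and *NNAT* kept their calls in all settings of scaling, background correction and probes. *KCNQ1*, *SLC22A18*, *PEG10* and *NNAT* had 1 probe each, so the mean of probes could not change their calls. Folds of probes near background depend on the background correction.

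Values that moved follow, and their cause was not tested unless the setting itself gives it. With normexp, the member medians were 0.11 with OR-2003 and 0.094 with OR-2100, and 1 other imprinted gene was reduced by all 3 drugs. With quantile normalization, the member medians were 0.32 with DAC and 0.47 with OR-2100. With the 75th percentile of bright probes, they were 0.39, 0.42 and 0.55 in the order DAC, OR-2003, OR-2100. By all 3 drugs, 1 other imprinted gene was then reduced, 2 imprint factors were induced and 0 reduced, and 1 flanking gene was induced and 1 reduced. This scaling and that by the median of all probes shift every level against the fixed threshold of -1. With the median, 10, 8 and 10 members were induced in this order, 5 were reduced with DAC and 5 with OR-2100, and the member medians were 0.072 with DAC and -0.00097 with OR-2003. Between DAC and OR-2003 1 member was then 2-fold apart, and between DAC and OR-2100 1. By all 3 drugs, 14 other imprinted genes were induced and 6 reduced, and 10 flanking genes were induced and 7 reduced. The median of all genes was moved by up to 0.22 by these scalings. With the mean of probes, 1 flanking gene was induced.

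With dim probes left out, fewer genes were tested, the member medians were 0.075 with DAC and 0.22 with OR-2100, and 3 other imprinted genes, 0 imprint factors and 1 flanking gene were induced by all 3 drugs. With a 4-fold threshold, 1 member was reduced with DAC, 1 with OR-2003 and 1 with OR-2100, and by all 3 drugs 0 other imprinted genes and 0 imprint factors were reduced, 1 flanking gene was induced and 0 reduced. With a level threshold of 0, 1 other imprinted gene was reduced. With no level threshold, 10, 9 and 11 members were induced and 5 reduced with OR-2100, 1 member, *USP29*, which was well above background on no array, was 2-fold apart in each pair of DAC and OR-2003 (1), DAC and OR-2100 (1) and OR-2003 and OR-2100 (1), and by all 3 drugs 16 other imprinted genes were induced and 6 reduced, and 12 flanking genes were induced.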

Other observations

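Several of the other imprinted genes were higher than mock with all 3 drugs without reaching the level of positive expression. In the order DAC, OR-2003, OR-2100, the log2 differences were 2.72, 3.08 and 3.06 for *ZNF331*, a zinc finger gene, and 2.69, 2.66 and 2.72 for *GNAS-AS1*, the antisense RNA of the *GNAS* locus. *PEG13*, a noncoding RNA that lies inside the reduced gene *TRAPPC9*, was not well above background on mock and was at least 5.36, 5.34 and 6.14-fold higher. These 3 were chosen after their values were seen.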
